A study of Mus musculus with 25 samples.

Results

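Mouse embryonic fibroblasts that lack Tsc2 were compared after 24 h of rapamycin and after 24 h of vehicle, on every gene that the arrays name. The members are 5 of the 25 arrays of the study, chosen by their labels: 2 arrays of the Tsc2-null line (Tsc2-/- p53-/-) with 20 nM rapamycin for 24 h, and 3 arrays of that line with vehicle (DMSO) for 24 h. Both groups lacked p53 as well as Tsc2, and all plates were serum starved for 24 h at 70% confluence in 10 cm dishes. Other arrays are used below only where stated: 2 arrays each of the Tsc2-null line after 2, 6 and 12 h of rapamycin, 2 of a Tsc1-null line (Tsc1-/- p53+/+, immortalized by 3T3 passage) after 24 h of rapamycin with 3 of its vehicle arrays, and 3 vehicle arrays of a littermate wild-type line (Tsc2+/+ p53-/-). Each genotype is 1 line and each array is 1 plate, so p-values measure the spread between plates of a line and not between independently derived lines.

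The TSC complex, whose partners are encoded by Tsc1 and Tsc2, switches off the small GTPase Rheb and so holds back mTORC1, a kinase complex that turns growth signals and nutrients into synthesis of protein, lipid and nucleotides. Without Tsc2, mTORC1 stays active in cells deprived of serum, and it acts on transcription largely through HIF1, SREBP, ATF4 and the lysosomal MiT factors. Rapamycin binds FKBP12 and inhibits mTORC1, and inhibition also releases the feedback by which mTORC1 and S6 kinase dampen insulin, PDGF and ERK signalling.

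Values are log2 expression levels (1 unit is a 2-fold step), differences are rapamycin minus vehicle with the standard error (SE) of the limma fit, and a gene is called at an adjusted p under 0.05 (Benjamini-Hochberg over 18162 genes). Array medians lay between 6.26 and 6.41. Arrays of 1 group correlated at 0.9966 to 0.9979 across all probe sets except controls, and the 6 pairs of a rapamycin and a vehicle array at 0.9826 to 0.9843. Dim probe sets sit on a background signal, which understates their fold changes.

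Of all 18162 genes, 35.6% were called at 24 h (17.5% higher and 18.1% lower), and 4.78% were called with at least a 2-fold difference (2.16% higher and 2.62% lower). The number called was 6462 genes (3170 higher, 3292 lower), of which 868 moved at least 2-fold (392 higher, 476 lower). The median difference of the called genes was 0.503 in size and that of all genes was 0.00. In 55.2% of genes the 2 rapamycin arrays did not overlap the 3 vehicle arrays, so a lack of overlap by itself was common here. Every count of list members below is to be read against those shares. The lists are described by counts and medians and were not tested as lists.

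Among single genes, the largest rise was that of the metal-binding metallothionein Mt2, with 12.94 and 12.97 on the rapamycin arrays against 8.96, 9.04 and 8.81 on the vehicle arrays. That is a 16.2-fold difference (4.02, SE 0.14, adjusted p = 1.1e-14). The Wnt-enhancing R-spondin Rspo1 had 10.40 and 9.81 under rapamycin against 6.36, 6.09 and 6.62 under vehicle, and the ERK phosphatase Dusp6 had 9.37 and 9.14 against 6.06, 5.87 and 5.71. The matricellular growth-factor modulator Ccn2 stood at 10.73 and 10.59 with rapamycin and at 7.25, 7.30 and 7.42 with vehicle, and Id1, an inhibitor of basic helix-loop-helix factors, at 11.89 and 11.90 with rapamycin and 8.58, 8.53 and 8.60 with vehicle. In all 5 genes both rapamycin arrays lay above every vehicle array by more than 3 log2 units. Next in size were the latent TGF-beta binding protein Ltbp2 (3.05), the vasoconstrictor peptide endothelin Edn1 (2.7), the kinase anchor Akap5 (2.60), Plscr2 (2.55), the protease inhibitor Serpinb6b (2.52), the IGF binding protein Igfbp2 (2.50) and the formin Daam2 (2.48), each called.

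The largest fall was that of the fatty acid receptor Ffar4, with 6.16 and 5.83 under rapamycin against 8.90, 9.11 and 8.99 under vehicle (-3.00, SE 0.11, adjusted p = 1.1e-14). The replication licensing factor Cdc6 had 5.98 and 6.34 with rapamycin against 9.04, 8.98 and 8.75 with vehicle, and the phosphofructokinase Pfkp had 7.81 and 7.81 against 10.59, 10.51 and 10.54. Rrm2, the regulated subunit of ribonucleotide reductase, had 8.91 and 8.98 with rapamycin against 11.72, 11.69 and 11.62 with vehicle. These falls were 8.02-fold, 6.80-fold, 6.66-fold and 6.64-fold, and no array of one group reached the other. They were followed by Vldlr (-2.66), Depdc1a (-2.64), the neutrophil chemokine Cxcl3 (-2.53), the matrix protein Dpt (-2.52), the kinetochore protein Ska1 (-2.51), the cohesin acetyltransferase Esco2 (-2.48), the stress pseudokinase Trib3 (-2.47) and the mTORC1 inhibitor Ddit4 (-2.43). All were called. Depdc1a was the least even of them on the rapamycin arrays, at 4.86 and 5.79.

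**Figure D1:**
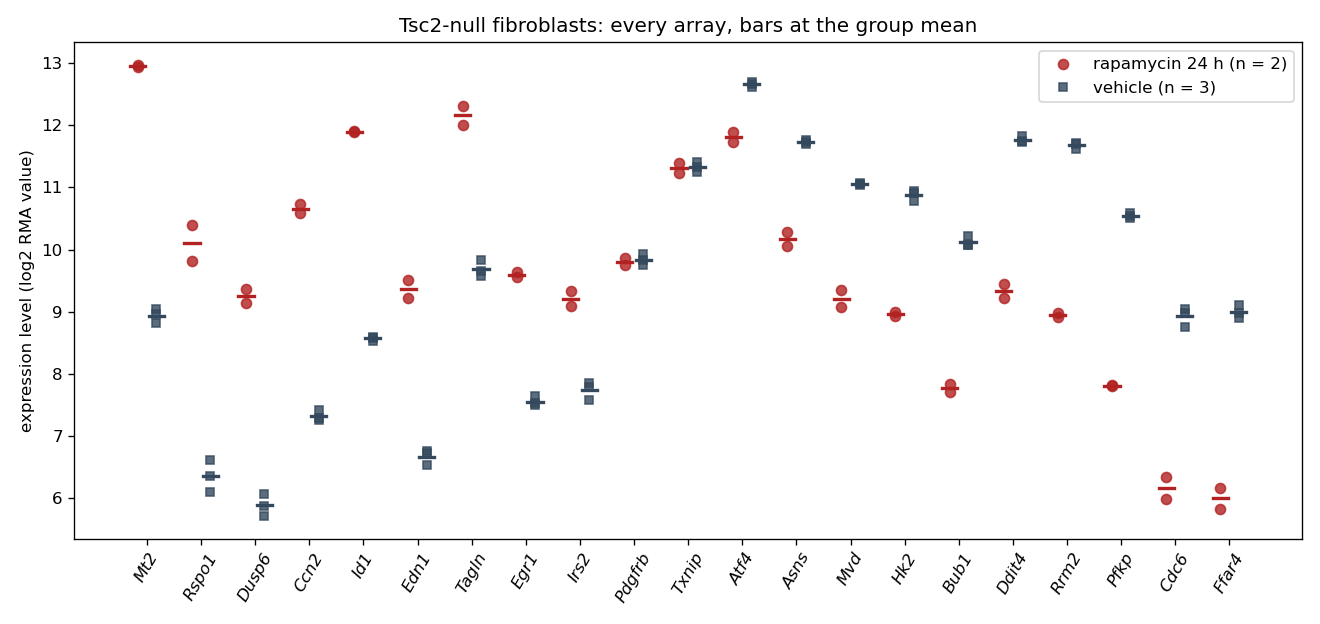
Expression level (log2 RMA value, vertical axis) of 21 named genes on every array of the Tsc2-null line, with rapamycin 24 h as circles (2 arrays) left of vehicle as squares (3 arrays) and bars at the group means. Mt2 through Irs2 lie higher under rapamycin, Pdgfrb and Txnip overlap, and Atf4 through Ffar4 lie lower.

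Promoters of 5 genes that fell are printed because they carry the short elements of the factors named above. The sequences are from RefSeq (GRCm38.p6), run 250 bases before to 50 bases after the gene start, and read 5′ to 3′ on the gene's own strand. Capitals mark the element as it stands in either orientation: the HIF element ACGTG in Ddit4 (1 match) and Hk2 (2 matches, both as its reverse complement CACGT), the ATF4 element TGATGNAA in Asns (1) and Trib3 (1, as its reverse complement), and the E-box CACGTG of the lysosomal gene network in Atp6v0b (2), a subunit of the vacuolar proton pump. The E-box contains the HIF element, so a match to it is also a match to ACGTG. The printed Asns sequence also holds the HIF element, as its reverse complement, which is left in lower case.
Ddit4, chr10:59951721-59952020, minus strand: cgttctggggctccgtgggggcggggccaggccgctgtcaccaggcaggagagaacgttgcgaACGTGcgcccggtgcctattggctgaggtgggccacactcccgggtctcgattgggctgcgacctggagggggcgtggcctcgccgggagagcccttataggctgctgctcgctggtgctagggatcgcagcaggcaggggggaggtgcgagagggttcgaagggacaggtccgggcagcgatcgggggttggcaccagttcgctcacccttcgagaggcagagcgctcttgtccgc
Hk2, chr6:82774405-82774704, minus strand: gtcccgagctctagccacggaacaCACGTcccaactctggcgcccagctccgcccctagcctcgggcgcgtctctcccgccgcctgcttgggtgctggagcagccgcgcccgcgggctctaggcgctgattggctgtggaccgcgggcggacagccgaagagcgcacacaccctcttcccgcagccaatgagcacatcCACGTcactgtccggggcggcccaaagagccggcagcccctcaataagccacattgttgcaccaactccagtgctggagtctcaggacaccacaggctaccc
Asns, chr6:7693160-7693459, minus strand: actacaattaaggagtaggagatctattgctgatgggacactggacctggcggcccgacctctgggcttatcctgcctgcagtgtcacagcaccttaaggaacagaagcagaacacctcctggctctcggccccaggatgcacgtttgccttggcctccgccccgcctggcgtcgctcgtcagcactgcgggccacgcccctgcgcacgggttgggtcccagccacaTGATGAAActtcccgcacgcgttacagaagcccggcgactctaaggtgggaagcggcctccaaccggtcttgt
Trib3, chr2:152344011-152344310, minus strand: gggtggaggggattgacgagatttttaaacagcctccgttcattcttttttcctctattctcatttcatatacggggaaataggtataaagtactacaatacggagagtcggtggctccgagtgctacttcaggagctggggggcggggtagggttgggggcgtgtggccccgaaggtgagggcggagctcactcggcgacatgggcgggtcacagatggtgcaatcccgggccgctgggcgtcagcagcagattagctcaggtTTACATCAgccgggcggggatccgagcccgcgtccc
Atp6v0b, chr4:117887280-117887579, minus strand: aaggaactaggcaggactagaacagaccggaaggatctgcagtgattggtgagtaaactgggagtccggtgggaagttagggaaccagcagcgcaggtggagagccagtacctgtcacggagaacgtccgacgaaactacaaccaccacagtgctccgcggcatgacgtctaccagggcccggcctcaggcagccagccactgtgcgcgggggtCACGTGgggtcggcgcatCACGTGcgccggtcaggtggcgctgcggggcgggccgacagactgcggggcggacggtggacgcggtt

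Both strands of the same window were searched in every gene of the promoter table, taking any of a gene's promoters. ACGTG was present in 13 of 17 genes of the HIF list and 12 of 17 of the glycolysis list that have a promoter there (76.5% and 70.6%), against 21.8% of all 27025 genes. TGATGNAA was present in 7 of 21 genes of the ATF4 list (33.3%) and in 5 of 12 cytosolic aminoacyl-tRNA synthetases (41.7%), against 4.51% of all genes. CACGTG was present in 4 of 10 proton pump genes (40%) and 9 of 22 other lysosomal genes (40.9%), against 8.09%. Other lists held these letters at shares not far below: ACGTG was present in 60% of the circadian and of the proton pump list and 53.3% of translation factors. CACGTG was present in 33.3% each of circadian genes, translation factors and synthetases, 32.0% of ribosome biogenesis genes and 31.8% of the FOXO list. The sterol elements TCACCCCAC and TCACNCCAC were each found in 1 of 18 sterol genes (5.56%), Hmgcs1, against 0.614% and 1.44% of all genes, and the FOXO element GTAAACA in 1 of 22 genes of the FOXO list (4.55%) against 4.05%. A match is a description of the letters and not evidence of binding, and a window without one says nothing about the factor. Several lists were drawn from genes known as targets of these factors.

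Genes of glucose uptake and glycolysis were mostly lower. Of 18 measured genes, 16 were lower and 1 higher, with a median difference of -1.12. The named genes cover entry, commitment and exit of the pathway. Slc2a1, the basal glucose transporter, had 10.75 and 10.76 on the rapamycin arrays against 12.08, 12.10 and 12.03 on the vehicle arrays (-1.31, SE 0.09, adjusted p = 2.2e-10). Hexokinase Hk2, which traps glucose as its phosphate, had 8.93 and 9.0 with rapamycin against 10.94, 10.91 and 10.78 with vehicle (-1.91, SE 0.09, adjusted p = 2.9e-13). Pfkp, the platelet-type phosphofructokinase, fell most (-2.74, SE 0.10, adjusted p = 1.7e-14), while its muscle-type paralog Pfkm was the member that was not called (0.05, adjusted p = 0.68). The lactate exporter Slc16a3 had 9.17 and 9.0 under rapamycin against 11.45, 11.46 and 11.54 under vehicle, a 5.26-fold fall. The transporter Slc2a3 was the 1 member that rose (1.56, SE 0.17, adjusted p = 1.1e-07). Transporters and phosphofructokinases thus moved unevenly within the list, and the groups did not overlap for any of the 4 named genes.

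HIF factors and targets outside glycolysis followed the same direction, with 15 of 20 lower, 1 higher and a median of -0.66. Ddit4, a HIF and stress target that restrains mTORC1, had 9.23 and 9.45 with rapamycin against 11.83, 11.73 and 11.75 with vehicle (5.40-fold lower, adjusted p = 1.7e-14). Egln3, a prolyl hydroxylase that marks HIF for destruction, fell by 2.09, and Higd1a, a mitochondrial hypoxia protein, fell by 1.84. The angiogenic factor Vegfa fell by 0.77 (adjusted p = 9.1e-07). Hif1a itself, at 12.14 and 12.30 with rapamycin against 12.70, 12.60 and 12.52 with vehicle, fell by 0.39 (adjusted p = 0.00055), less than most of its listed targets. Car9 and Egln1, both well-known HIF targets, were not called (-0.12 and 0.08).

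In the pentose phosphate pathway 5 of 9 genes fell and 3 rose. Rpia and Taldo1 of the non-oxidative branch differed by -1.46 and -1.0, and Pgd, the second dehydrogenase of the oxidative branch, by -1.06, all called. Among purine and pyrimidine enzymes 6 of 14 fell and 2 rose, and 10 fell when the probe sets of a gene were averaged. The purine enzymes Pfas (-0.77) and Gmps (-0.73) were lower, whereas Ctps, the CTP synthase, had 11.77 and 11.81 under rapamycin against 10.88, 10.89 and 10.89 under vehicle and rose by 0.90 (SE 0.07, adjusted p = 1.5e-09). Other probe sets of Gmps, at lower mean levels, differed by 0.07 and -0.07 and were not called (adjusted p = 0.74 and 0.76).

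Sterol synthesis, uptake and sensing was a list of mostly lower genes. Of 22 genes, 18 fell and 2 rose, with a median of -1.20. Mvd, which makes isopentenyl diphosphate at the end of the mevalonate steps, had 9.35 and 9.07 with rapamycin against 11.05, 11.04 and 11.08 with vehicle (-1.84, SE 0.08, adjusted p = 1e-13). Sc5d and Nsdhl, enzymes of the late steps between lanosterol and cholesterol, fell by 1.44 and 1.39 with SE 0.06 each. The factor that drives these genes, Srebf2, had 11.08 and 10.78 under rapamycin against 10.89, 10.68 and 10.69 under vehicle, and was not called (0.18, SE 0.09, adjusted p = 0.13). Its groups overlapped, and its other probe set, at nearly the same mean level, was called higher (0.29, adjusted p = 0.011). The 2 members that rose were Scap and Insig1, which escort and retain SREBP (0.34 and 0.41). Fatty acid synthesis genes fell likewise, with 14 of 18 lower, 2 higher and a median of -0.82. Acss2, which makes acetyl-CoA from acetate, had 6.97 and 6.90 with rapamycin against 9.32, 9.21 and 9.25 with vehicle, a 5.02-fold fall (adjusted p = 5.7e-15). The desaturase Scd1 fell by 1.43, the elongase Elovl6 by 1.13 and fatty acid synthase Fasn by 1.00. Srebf1 had 10.68 and 10.68 with rapamycin against 11.63, 11.59 and 11.55 with vehicle, and here the factor itself fell (-0.91, SE 0.07, adjusted p = 5e-10).

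Amino acid supply gave the lowest median of the 32 lists. Of 22 ATF4 factors and targets, 20 fell and 1 rose, with a median of -1.44. Atf4 had 11.90 and 11.73 under rapamycin against 12.62, 12.66 and 12.70 under vehicle (-0.85, SE 0.07, adjusted p = 5.1e-09). Psph, the last enzyme of serine synthesis, had 8.78 and 8.82 with rapamycin against 11.13, 11.17 and 11.26 with vehicle (5.22-fold lower). Mthfd2 and Mthfd1l, which carry one-carbon units through the mitochondrial folate pathway, fell by 1.88 and 1.64. Asparagine synthetase Asns had 10.28 and 10.06 with rapamycin against 11.70, 11.73 and 11.77 with vehicle (-1.56, SE 0.07, adjusted p = 3.1e-13). All of these sat below every vehicle array. Cebpb was the member that rose (0.43), and Atf5 was not called (-0.19).

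Of 12 amino acid transporters 9 fell and none rose, with a median of -0.81. Slc7a5 and Slc3a2, the light and heavy chains of the large neutral amino acid exchanger, fell by 1.56 and 1.21. The neutral transporter Slc1a4 fell by 0.98, and the cystine importer Slc7a11, the noisiest of the named members, had 6.37 and 5.83 with rapamycin against 7.02, 7.16 and 6.93 with vehicle (-0.94, SE 0.17, adjusted p = 7.7e-05). Cytosolic aminoacyl-tRNA synthetases, which charge tRNAs with amino acids, had 16 of 18 lower and 1 higher, with a median of -0.67. Aars, Tars and Gars fell by 1.21, 1.07 and 1.02, and Qars was the 1 that rose (0.49).

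**Figure D2:**
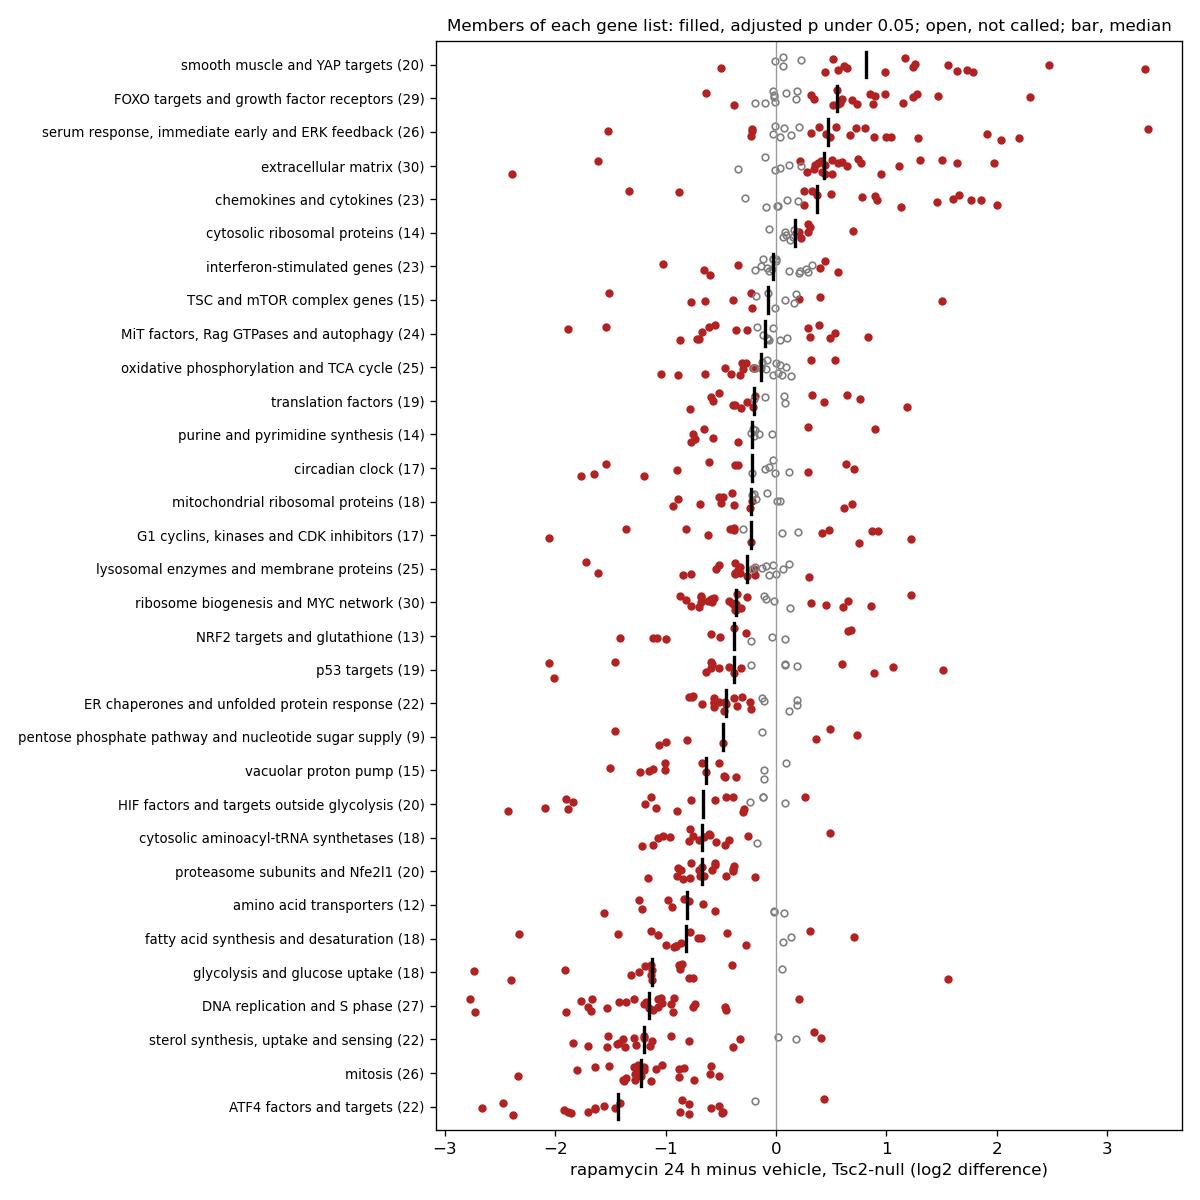
Log2 difference, rapamycin 24 h minus vehicle in Tsc2-null cells (horizontal axis), of every measured member of 32 gene lists, sorted by the list median (black bar), with the number measured in parentheses. Filled points were called and open points were not, and medians run from -1.44 (ATF4 factors and targets) to 0.81 (smooth muscle and YAP targets), against 0.00 for all genes.

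Genes of the acidifying pump of the lysosome and of the enzymes inside it were lower, in different shares. Of 15 vacuolar proton pump genes 12 fell and none rose, with a median of -0.63. Atp6v0b of the membrane sector had 10.44 and 10.48 under rapamycin against 11.90, 11.89 and 12.09 under vehicle (-1.5, SE 0.09, adjusted p = 1.1e-11, and -0.70 on another probe set), and Atp6v1d and Atp6v1c1 of the cytosolic sector fell by 1.23 and 1.15. Of 25 lysosomal enzymes and membrane proteins 15 fell and 1 rose, with a median of -0.26. The sialidase Neu1 and the alpha-galactosidase Gla differed by -1.72 and -1.61, and the cholesterol exporter Npc1 fell by 0.84 and the calcium channel Mcoln1 by 0.77. MiT factors, Rag GTPases and autophagy genes were mixed, with 10 of 24 lower and 6 higher. Fnip2, a folliculin partner, fell by 1.54 and the autophagy receptor Sqstm1 by 0.61 (adjusted p = 1e-07), while the receptor Nbr1 rose by 0.83. Tfeb, a master factor of the lysosome, had 9.29 and 9.26 with rapamycin against 8.99, 9.01 and 8.95 with vehicle (0.29, SE 0.10, adjusted p = 0.026, not called without either rapamycin array or without vehicle array 3), and its relative Tfe3 was not called (-0.03).

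Genes of protein turnover and folding were lower. All 20 measured members of the proteasome list were called lower, with a median of -0.68 and a range from -1.16 to -0.19. Psmd14, the deubiquitinase of the lid, had 11.43 and 11.36 with rapamycin against 12.48, 12.51 and 12.69 with vehicle (-1.16, SE 0.08, adjusted p = 2.6e-10). Psmc4 of the ATPase ring and Psmd12 of the lid fell by 0.90 and 0.86. Of 22 chaperones and unfolded protein response genes of the endoplasmic reticulum 17 fell and none rose, with a median of -0.45, and Sdf2l1, Edem1 and Dnajb11 differed by -0.79, -0.76 and -0.75. In the NRF2 and glutathione list 8 of 13 fell and 2 rose. The heme oxygenase Hmox1 had 9.50 and 9.59 under rapamycin against 10.96, 10.92 and 10.99 under vehicle (-1.41, SE 0.08, adjusted p = 9.7e-12), and glutathione reductase Gsr and sulfiredoxin Srxn1 differed by -1.08 and -1.11.

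Translation genes split. Ribosome biogenesis and MYC network genes had 20 of 30 lower and 6 higher, with a median of -0.37. The nucleolar GTPase Gnl3 and the polymerase I factor Rrn3 fell by 0.77 and 0.68. Myc rose to 9.07 and 8.81 under rapamycin, against 8.30, 8.27 and 8.29 under vehicle (0.65, SE 0.09, adjusted p = 5.7e-06), its target Odc1, the polyamine enzyme, rose by 0.86, and the MYC antagonist Mxd4 rose by 1.22. Of 14 cytosolic ribosomal protein genes 7 rose and none fell, with a median of 0.17 and a largest difference of 0.70 for Rps6 (8.17 and 8.20 with rapamycin, against 7.56, 7.44 and 7.48 with vehicle). The number that rose was 4 without rapamycin array 2 or with arrays centred on their medians. Ribosomal protein genes have many near-identical pseudogenes, and 8 of the 22 listed genes had no probe set naming them alone. Among 19 translation factors 10 fell and 5 rose. The factors that rose included Eif4a2, an RNA helicase of initiation (1.19), its partner Eif4b (0.76) and the elongation factor Eef2 (0.64). In mitochondria, 11 of 25 respiratory and TCA cycle genes fell and 2 rose. The largest falls were those of the dehydrogenases Ogdh (-1.04) and Idh3a (-0.89). Other probe sets of Idh3a, at lower mean levels, differed by -0.27, -0.04 and -0.19, and only the first of these was called. Of 18 mitochondrial ribosomal protein genes 10 fell and 2 rose. Ppargc1a, the coactivator of mitochondrial genes, was low and not called (4.78 and 4.91 with rapamycin, against 5.03, 5.08 and 5.03 with vehicle).

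The cell cycle lists fell almost completely at 24 h. Of 27 replication genes 26 fell and 1 rose, with a median of -1.15, and all 26 mitosis genes fell, with a median of -1.22. Pcna, the sliding clamp of DNA polymerase, had 11.81 and 11.61 with rapamycin against 13.33, 13.37 and 13.45 with vehicle (-1.67, SE 0.09, adjusted p = 2.9e-12). The checkpoint kinase Bub1 had 7.84 and 7.72 with rapamycin against 10.22, 10.08 and 10.08 with vehicle (5.08-fold lower, adjusted p = 6.6e-13). Aurkb, the kinase of the chromosomal passenger complex, fell by 1.80, and Top2a, which untangles chromosomes, by 1.51. In each of these the groups did not overlap.
Among G1 regulators, 8 of 17 fell and 6 rose. The CDK inhibitor Cdkn1a had 7.10 and 6.97 under rapamycin against 9.07, 9.21 and 9.01 under vehicle, a 4.17-fold fall (adjusted p = 1.5e-13), while the inhibitor Cdkn2b rose by 0.92 and cyclin D1, Ccnd1, by 0.42 (adjusted p = 0.0031). Cdkn1a is a classical p53 target, and these cells lack p53. Of 19 p53 targets 11 fell and 4 rose, and Gadd45a and Sesn2, which are also stress-induced, differed by -2.01 and -1.46. In bulk RNA, fewer cells in a phase and less RNA per cell cannot be told apart.

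Growth factor receptor, ERK feedback, contractility and matrix lists had more members that rose than fell. Of 29 FOXO targets and growth factor receptors 18 rose and 2 fell, with a median of 0.55. Cat (-0.63) and Ccng2 (-0.38), both FOXO targets, were the members that fell. Among other FOXO targets, Klf2 and Sod2 rose by 0.73 and 0.52, and Sesn3, Klf15 and Bcl6 were not called. The insulin receptor substrate Irs2 had 9.33 and 9.09 with rapamycin against 7.85, 7.79 and 7.57 with vehicle (1.47, SE 0.10, adjusted p = 8.2e-11). Irs1 rose by 0.90, the IGF receptor Igf1r by 1.15 and the HGF receptor Met by 1.24. The receptor Pdgfra had 12.29 and 12.37 with rapamycin against 11.12, 11.05 and 10.97 with vehicle, and rose by 1.28 (SE 0.09). Its paralog Pdgfrb had 9.75 and 9.86 with rapamycin against 9.93, 9.83 and 9.76 with vehicle, overlapping groups that were not called (-0.03, adjusted p = 0.88). The ubiquitin ligase Fbxo32, a FOXO target of muscle, had 7.38 and 7.24 under rapamycin against 5.25, 4.75 and 5.02 under vehicle, a 4.93-fold rise, while its other 2 probe sets, at similar mean levels, rose by 0.85 and 0.80 on the log2 scale. Txnip, which brakes glucose uptake, was not called (-0.02, adjusted p = 0.90).

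Of 26 serum response, immediate early and ERK feedback genes 16 rose and 4 fell, with a median of 0.47, and 1 or 2 fell when any 1 of the 5 arrays was left out. The zinc finger factor Egr1 had 9.63 and 9.56 with rapamycin against 7.64, 7.53 and 7.50 with vehicle (2.04, SE 0.09, adjusted p = 1.4e-13). Spry2, a feedback inhibitor of receptor tyrosine kinases, rose 4.60-fold and Dusp6 10.3-fold. Fosl1, a component of AP-1, was among the 4 that fell (-1.52, adjusted p = 6.1e-10). Of 20 smooth muscle and YAP target genes 15 rose and 1 fell, and their median of 0.81 was the highest of the 32 lists. The actin-binding protein Tagln had 12.31 and 12.01 with rapamycin against 9.58, 9.66 and 9.83 with vehicle (2.47, SE 0.11), the YAP target and adaptor Ajuba rose by 1.78 and smooth muscle actin Acta2 by 0.99 (12.98 and 12.81 with rapamycin, against 11.88, 11.92 and 11.91 with vehicle).

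Matrix genes had 22 of 30 higher and 2 lower, with a median of 0.43. The crosslinker Loxl1 had 10.30 and 10.08 under rapamycin against 8.17, 8.18 and 8.29 under vehicle (1.97, SE 0.09), and the protease inhibitor Timp3 and the proteoglycan Bgn rose by 1.64 and 1.5. The collagenase Mmp13 and the stromelysin Mmp3 were the 2 that fell (-2.39 and -1.61). Among 23 chemokines and cytokines 15 rose and 2 fell. The macrophage growth factor Csf1 had 11.72 and 11.71 with rapamycin against 9.67, 9.75 and 9.74 with vehicle (2.00, SE 0.09), and the stromal chemokine Cxcl12 rose by 1.60. The epithelial growth factor Fgf7 rose by 1.66 and by 0.91 on its other probe set, and was not called in the deposited log2 ratio table (0.12, adjusted p = 0.12). The 2 that fell were the neutrophil chemokines Cxcl15 (-1.33) and Cxcl2 (-0.88). Interferon-stimulated genes were close to the background of all genes, with 3 of 23 higher, 4 lower and a median of -0.03. The transducer Stat2 fell by 1.02, Irf1 rose by 0.56 and Gbp3 fell by 0.65.

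In the circadian list 8 of 17 genes fell and 3 rose. The clock repressors Ciart and Bhlhe40 differed by -1.77 and -1.65, and the deadenylase-like Noct, read by 1 probe set, had 8.08 and 8.03 with rapamycin against 9.71, 9.54 and 9.55 with vehicle (-1.54, SE 0.08, adjusted p = 3.9e-12). Among 15 TSC and mTOR complex genes 6 fell and 3 rose. Tsc2 itself was measured in these Tsc2-null cells, at 8.11 and 7.85 with rapamycin against 9.48, 9.54 and 9.46 with vehicle (-1.51, SE 0.09, adjusted p = 1.5e-11), and at 9.70 ± 0.03 in wild-type vehicle cells (SD, n = 3). The sources used here do not say whether its single probe set lies in the deleted part, so it does not check the genotype label. Tsc1 fell by 0.77 and its partner Tbc1d7 by 0.64, Prr5 of mTORC2 rose by 1.5 from a dim level, and Mtor was not called (0.08, adjusted p = 0.57). The insulin signalling adaptor Grb10 rose by 0.21 (adjusted p = 0.022) by its brightest probe set, a call that 9 other settings did not keep. Its other 2 probe sets rose by 0.70 and 0.68 (adjusted p = 7.3e-06 and 1.7e-05), and the mean of all of them by 0.53 (adjusted p = 5.8e-06).

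Of 15 fibroblast markers 3 were in the dim range (Lum, Fap and Tcf21), 9 rose and none fell (Thy1 0.85, Twist1 0.61). Of 10 epithelial markers 4 rose and 1 fell. The keratins Krt18, Krt14 and Krt8 rose by 2.09, 1.25 and 0.42, and Krt19 differed by -0.64. Of the adhesion molecules that define epithelium, Epcam, which was not dim, rose by 0.31 (adjusted p = 0.017), and Cdh1 was dim and not called (0.30, adjusted p = 0.094). Their summed log2 level was 77.57 to 77.9 on the rapamycin arrays, against 73.71 to 74.05 on the vehicle arrays, and 5 of the 10 were dim. Of the endothelial, macrophage, skeletal muscle, adipocyte and neural markers, 1 of 10, 3 of 10, 0 of 10, 0 of 9 and 0 of 9 rose, and 1 adipocyte and 1 neural marker fell. The 4 that rose were the endothelial receptor Kdr (0.74, adjusted p = 6.5e-06) and the macrophage genes Cd68 (0.56), Cd14 (0.46) and Mrc1 (0.37), of which Mrc1 alone was dim. The 2 that fell were Pparg (-0.37) and Tubb3 (-0.48), both dim. The genes Pecam1, Cdh5, Ptprc, Adgre1, Myod1, Adipoq and Sox2 were in the dim range and not called. The part of these markers in the results above was not tested.

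The falls and rises did not share 1 course over time. The comparisons at 2, 6, 12 and 24 h use the same 3 vehicle arrays, so their values are given side by side only. Of all genes, 2.20%, 21.3%, 34.1% and 35.6% were called at those hours, as 400, 3870, 6198 and 6462 genes. The share called higher was 1.01%, 11.6%, 16.5% and 17.5%, and the share called lower 1.19%, 9.70%, 17.7% and 18.1%. ERK feedback and immediate early genes came earliest, with 11 of 26 higher and none lower at 2 h. Egr1 differed by 2.89, 2.79, 2.91 and 2.04 at 2, 6, 12 and 24 h, Dusp6 by 1.96, 2.60, 3.36 and 3.37, and Ccn2 by 1.82, 2.72, 3.35 and 3.34. Mt2 differed by -0.10, 0.81, 3.61 and 4.02 and was called from 6 h. Among genes that fell, Hk2 had reached -2.26 at 6 h and stood at -1.98 and -1.91 at 12 and 24 h. The proton pump was down in 12 of 15 genes at 6 h, the sterol list in 17 of 22. The ATF4 list had medians of 0.03, -0.44, -0.99 and -1.44, and the proteasome list of 0.00, -0.06, -0.41 and -0.68. Mitosis genes ran in 2 directions, with 12 of 26 higher and 1 lower at 6 h, 2 higher and 9 lower at 12 h, and 26 lower at 24 h, as medians of 0.10, 0.28, -0.20 and -1.22.

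**Figure D3:**
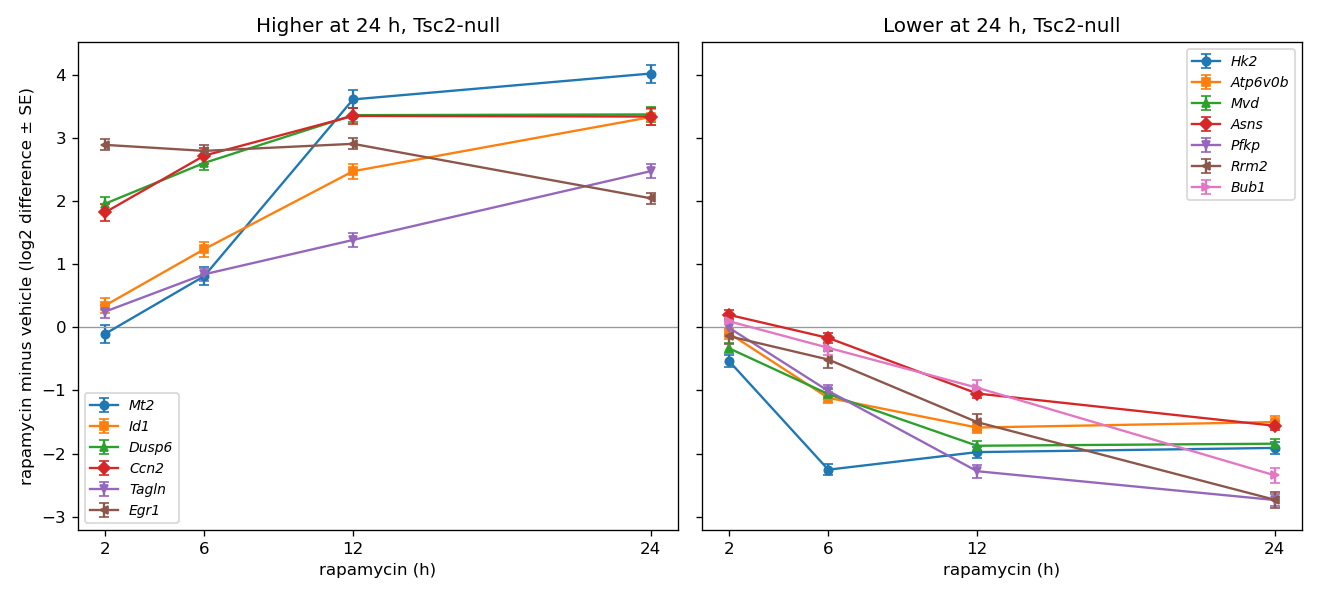
Log2 difference from vehicle in Tsc2-null cells (vertical axis, bars are the SE of the limma fit) after 2, 6, 12 and 24 h of rapamycin (horizontal axis, hours) for 6 genes that were higher and 7 that were lower at 24 h. Egr1 was at 2.89 by 2 h, Mt2 moved between 6 and 12 h (0.81 and 3.61), and Bub1 and Rrm2 were at -0.96 and -1.5 at 12 h and -2.34 and -2.73 at 24 h.

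The 24 h arrays were also compared with the 12 h arrays, which are separate plates. Of all genes 7.00% were called (2.69% higher and 4.31% lower, as 488 and 783 of 1271 genes), and cell cycle genes were among them: 22 of 27 replication genes and 25 of 26 mitosis genes were lower at 24 h than at 12 h, and none was higher. Depdc1a, of a mitotic DEP domain family, was lower by a difference of -1.89 (adjusted p = 1.8e-05), Ffar4 by -1.87, Cxcl3 by -1.84, Ska1 by -1.60, the spindle-associated Shcbp1 by -1.52 and the clamp loader subunit Dscc1 by -1.48. Higher at 24 h were the hyaluronan-degrading protein Cemip (1.42), Ltbp2 (1.29), Igfbp2 (1.25), the matrix protein Smoc2 (1.12), Tagln (1.09) and Igfbp3 (1.00), all called. Against vehicle Cemip rose by 1.66, but another of its probe sets, at a similar mean level, was not called (0.29, adjusted p = 0.11). Leaving out 1 plate moved the count of 1271 genes to 590 (without the 24 h plate numbered 1) or 684 (without the 12 h plate numbered 2).

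Tsc1-null cells offered the same 24 h contrast on arrays of their own. There, 29.6% of genes were called (11.6% higher and 18.0% lower, as 2109 and 3267 of 5376 genes). Of the 6462 Tsc2-null calls, 3120 were called the same way in Tsc1-null cells, which is 48.3% of the Tsc2-null and 58.0% of the Tsc1-null calls (1225 higher and 1895 lower in both), and 437 were called in opposite directions. The interaction, Tsc2-null difference minus Tsc1-null difference, was called for 20.2% of genes (12.1% positive and 8.14% negative, as 2191 and 1478 of 3669 genes). The lines differ in p53 and in how they were immortalized as well as in the deleted gene, and these cannot be told apart.

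The cell cycle lists took opposite directions in the lines. In Tsc1-null cells 15 of 26 mitosis genes were higher and 1 lower at 24 h (median 0.35), and 13 of 27 replication genes were higher and 3 lower (median 0.24). The interaction was called negative in 26 of 26 mitosis and 25 of 27 replication genes, with none positive. Top2a differed by -1.51 in Tsc2-null cells and 0.66 in the Tsc1-null line (interaction -2.18, SE 0.12, adjusted p = 9e-11), and Cdc6 by -2.77 and 0.71. Sterol genes fell in both lines, in 18 and 19 of 22 genes, and 14 interactions were negative, as for Mvd with -1.84 in Tsc2-null cells and -1.01 in the Tsc1-null line. The proteasome list was lower in 20 of 20 genes in each line, with 1 interaction called in each direction. ATF4 targets fell in 20 of 22 Tsc2-null and 21 of 22 Tsc1-null genes, with medians of -1.44 and -1.49. Of their interactions, 6 were called positive and 4 negative. Slc16a3 (-2.40 in Tsc2-null cells and -0.13 in the Tsc1-null line) and Tsc2 (-1.51 and 0.00) are genes whose call was limited to the Tsc2-null line, with interactions of -2.26 and -1.51 (adjusted p = 4.7e-10 and 1.8e-08). Among rises, Acta2 was larger in Tsc1-null cells (0.99 in Tsc2-null and 2.33 in Tsc1-null, interaction -1.34, adjusted p = 1.1e-08), and Egr1 rose in both (2.04 and 2.23), with an interaction that was not called (-0.18, SE 0.13, adjusted p = 0.37).

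**Figure D4:**
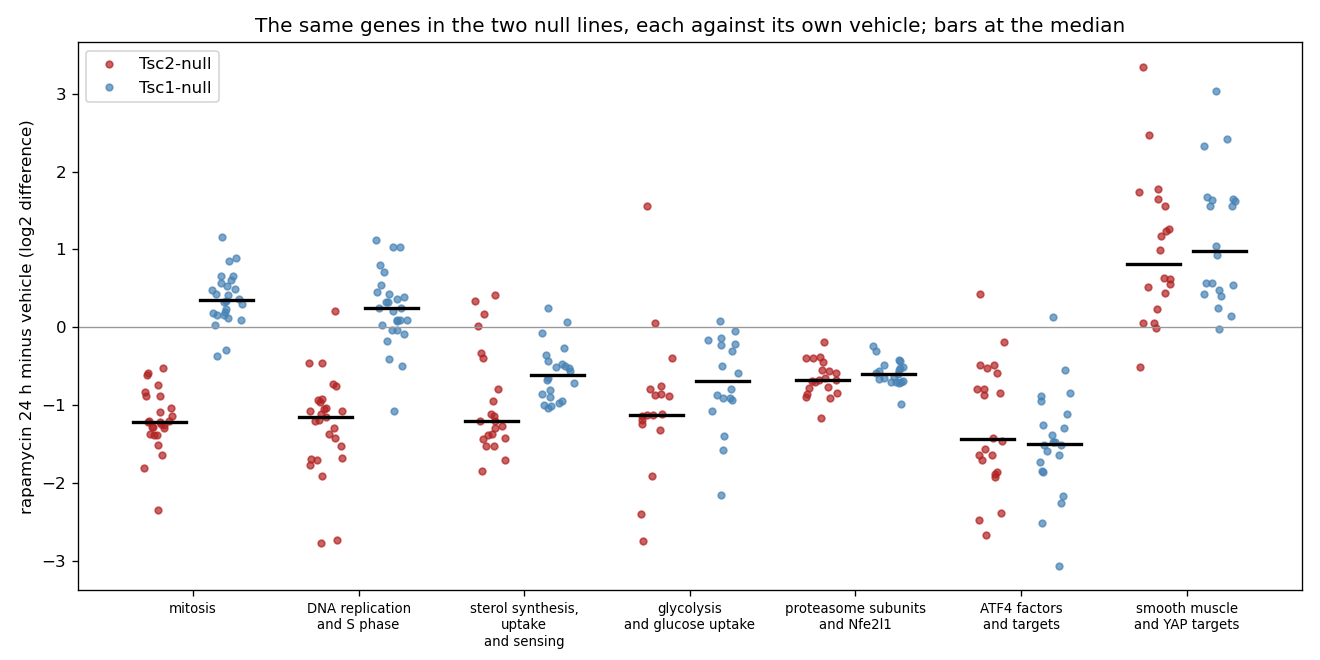
Log2 difference, rapamycin 24 h minus vehicle (vertical axis), for the members of 7 gene lists in Tsc2-null cells (red, left) and in Tsc1-null cells (blue, right), with black bars at the medians. Mitosis and replication medians lie at -1.22 and -1.15 in Tsc2-null and at 0.35 and 0.24 in Tsc1-null cells, while the other lists share a direction.

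Finally, the treated level was set beside that of the wild-type line under vehicle, a comparison that shares the rapamycin arrays with those above. Of all genes 41.6% were called (20.8% higher and 20.8% lower in rapamycin-treated Tsc2-null cells, as 3776 and 3784 genes). For some genes the treated level came near the wild-type level: Atp6v0b was 10.46 ± 0.03 (SD, n = 2) against 10.48 in wild type, Ccn2 10.66 against 10.93, Tagln 12.16 against 12.21 and Ajuba 10.91 against 10.86, none called, with differences of -0.02, -0.27, -0.05 and 0.05 (SE 0.09, 0.13, 0.11 and 0.09). Others stopped short of it. Hk2 remained higher than wild type by 0.30 (adjusted p = 0.0078) and Slc16a3 by 3.04, and Egr1 remained lower by a difference of -2.30. Other lists were lower than wild type: sterol genes were lower in 18 of 22 genes with none higher, mitosis genes in 21 of 26 with none higher, and ATF4 targets in 18 of 22 with 1 higher. Interferon-stimulated genes were lower than wild type in 23 of 23 genes, with a median of -1.96. Under vehicle the Tsc2-null line was already lower than wild type in 23 of these 23 genes, with a median of -1.74. In that vehicle comparison 3883 of all 18162 genes were called lower and 4295 higher. The wild-type line had no rapamycin arrays used here to set beside these values.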

How the data were processed

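RNA of each plate was isolated with an RNeasy kit, amplified with T7 polymerase by in vitro transcription with biotin and hybridised to an Affymetrix Mouse 430_2 array, per the labels' protocols. The deposited values are log2 expression values of 45101 probe sets (range 2.72 to 14.74), and the submitters' processing notes name RMA and limma without versions. A second table the authors deposited holds log2 ratios with many entries at 0 and served as an alternative only. Arrays have no sequencing depth, and their number limits the precision.

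The platform annotation gave 1 gene to 34945 probe sets, several to 932 and none to 9160 (64 more are controls), and 34943 of the single-gene ones were matched to RefSeq symbols (59 updated). For each of 18162 genes its brightest probe set by mean level (all 25 arrays) was kept, and 9020 genes had more than 1. In 80 genes probe sets were called in opposite directions. A gene in the lowest 40% by mean level over all arrays (up to 6.67) is called dim.

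One mean for each of the 11 groups was fitted to all 25 arrays with limma 3.58.1 in R 4.3.3 (lmFit, eBayes, 14 residual degrees of freedom), with Benjamini-Hochberg adjustment over all genes. The script was tested on simulated data. Array pairs and replicate numbers are described with the alternatives, which varied normalization, filters, probe sets, the arrays fitted, the variance model, a pseudocount of 64 on the linear scale, a replicate block and each array left out.

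Named genes are fixed factors and targets, the 3 called members of each list with the smallest p, the 12 largest rises and falls at 24 h, the 6 largest rises and falls against 12 h and the 6 largest interactions in each direction. The picks by size left out predicted genes. Those at 24 h and against 12 h also had groups that do not overlap, a rule not applied to the interactions. Other genes named in the text, members that went against their list and cell type markers among them, were chosen after their values were seen. The members and lists were chosen with earlier results of these data known. A listed gene without a probe set of its own was not analysed here. For the Tsc1-null arrays the titles were followed where a free-text hour disagreed.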

Additional observations from a re-analysis of the deposited data

Results flagged for a closer look

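The response to 24 h of rapamycin was tested between the lines, as the Tsc2-null difference minus the Tsc1-null difference in the limma fit. Among the 146 named genes this interaction was called for 88 (32 higher and 56 lower in Tsc2-null cells), against 20.2% of all genes, and many of the named genes were chosen for a large difference in Tsc2-null cells or for the interaction itself. The 16 genes below have the largest interactions or were called in opposite directions in the lines, which was so for 11 of them. No group holds 4 or more arrays, so single arrays were not tested as outliers.

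Several cell cycle genes fell in Tsc2-null cells and were higher in Tsc1-null cells. The interaction was -3.48 for the licensing factor Cdc6 (-2.77 in Tsc2-null cells and 0.71 in the Tsc1-null line, adjusted p = 2e-10). It was -3.29 for the clamp loader subunit Dscc1 (-2.16 and 1.13), -3.26 for Depdc1a (-2.64 and 0.62) and -3.03 for cyclin Ccne2 (-1.90 and 1.13, adjusted p = 3.1e-07). It was -2.18 for Top2a (-1.51 and 0.66) and -2.73 for the recombination factor Rad51ap1 (-2.40 and 0.32), whose Tsc1-null difference was not called. Outside the cell cycle, the angiopoietin Angpt1 had an interaction of -3.37 (-2.40 in Tsc2-null cells and 0.97 in the Tsc1-null line, adjusted p = 1.5e-10), and the circadian deadenylase-like gene Noct one of -2.00 (-1.54 and 0.46).

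In the other direction, the interaction was 3.97 for Rspo1 (3.75 in Tsc2-null cells and -0.23 in the Tsc1-null line, adjusted p = 7.4e-10), 3.65 for Id1 (3.33 and -0.32, adjusted p = 7.6e-12) and 3.41 for Mt2, which was called higher in both lines (4.02 and 0.61). It was 2.98 for Ltbp2 (3.05 and 0.07), 2.87 for Daam2 (2.48 and -0.39) and 2.61 for Igfbp3 (2.27 and -0.34). The mitochondrial ribosomal protein Mrpl24 had an interaction of 1.18 (0.69 and -0.48, adjusted p = 2e-06). The fatty acid carrier Fabp4 had an interaction of 3.13 through its fall in Tsc1-null cells (0.24 in Tsc2-null cells and -2.89 in the Tsc1-null line, adjusted p = 1.6e-09). The lines also differ in p53 and in how they were immortalized, so none of these differences can be tied to the deleted gene.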

How the results depend on the processing

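With 2 rapamycin arrays of 1 line, the results describe these plates. Testing each of 34945 probe sets on its own, which adds tests by construction, gave 11175 calls for 24 h of rapamycin (5517 higher, 5658 lower, 1460 at least 2-fold), 5826 for the interaction, 1933 against 12 h, 9123 in Tsc1-null cells and 13438 against wild type. With 64 added to the linear value, which shrinks the folds of dim genes, 575 genes moved at least 2-fold. Leaving out 1 array at a time gave 5317 to 5959 calls for 24 h of rapamycin in Tsc2-null cells (2430 to 2911 higher, 2722 to 3076 lower, 862 to 934 at least 2-fold). For the other comparisons it gave 2763 to 3615 for the interaction, 590 to 988 against 12 h, 4337 to 5036 in Tsc1-null cells and 6478 to 7457 against wild type. Counts of all genes under the other settings stayed within 1.5 times those reported. With the replicate block (replicate number within each line) 6154 genes were called at 24 h, and the same-numbered arrays did not deviate together (correlations -0.09 and 0.06 over 2 pairs). The block could not be fitted against wild type. Of 2318 alternatives over the 146 named genes, 2297 kept the call and the direction and 0 reversed. The call changed for 6 genes. Grb10 and Tfeb lost it in 9 and 4 settings, Atp5g1 with probe sets averaged (-0.19, adjusted p = 0.18) and Fgf7 in the log2 ratio table (0.12, adjusted p = 0.12), while Srebf2 gained it in 5 settings (0.22 to 0.37) and Fabp4 in 1. That table covers 9642 genes, and Slc7a11, Ppargc1a, Fbxo32, Gbp3, Esco2 and Fabp4 stand at 0 there on all 5 arrays. Of 1024 alternatives for list counts, 42 moved by over 1.5 times. Another probe set was present for 79 named genes, of which 21 were called by the kept set and not by another, 1 (Srebf2) by another and not by the kept set, and 0 in opposite directions. The cause of these changes was not tested.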

Other observations

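Members of several further gene families, some of them already named above, were called at 24 h in Tsc2-null cells. The families were picked after their values were seen and were not tested as lists, and their counts stand against 17.5% of all genes called higher and 18.1% lower. Of 15 Id factors and BMP pathway genes 11 rose and none fell, with a median of 0.68. Besides Id1, the factors Id2, Id3 and Id4 rose by 1.57, 2.00 and 1.38, the inhibitory Smad6 by 1.77, the ligands Bmp4 and Bmp6 by 1.54 and 1.35, and the BMP antagonist Nog by 0.56. In Tsc1-null cells Id2 and Id3 rose by 0.87 and 0.85, and Id4 was not called (-0.31, adjusted p = 0.17). Smad6 and Bmp4 rose there by 1.33 and 2.17, while Bmp6 and Nog were not called (0.04 and 0.01).

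Of 7 metallothionein and zinc genes 3 rose and none fell, with a median of 0.03. Mt1 had 13.34 and 13.30 with rapamycin against 12.22, 12.09 and 12.18 with vehicle, and the zinc exporter Slc30a1 had 9.01 and 8.84 with rapamycin against 7.22, 7.05 and 7.06 with vehicle (1.82, adjusted p = 1.6e-08). Mt1 had differed by -0.54 at 6 h. The metal-sensing factor Mtf1 was not called (-0.22). Of 7 IGF binding proteins 5 rose and 1 fell. Igfbp2, Igfbp3, Igfbp7 and Igfbp6 rose by 2.50, 2.27, 2.23 and 0.75, whereas Igfbp5 had 7.07 and 6.97 with rapamycin against 9.59, 9.37 and 9.29 with vehicle and fell by 2.39. Igfbp5 also fell in Tsc1-null cells (-3.55).

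Of 15 Wnt pathway genes, which include R-spondins, receptors, secreted modulators, formins and the pathway target Axin2, 8 rose and 1 fell. The secreted modulators Sfrp2 and Sfrp1 rose by 1.14 and 0.69, the ligand Wnt5a rose by 0.92, and the R-spondin receptor Lgr4 fell by 0.89. Axin2 was not called (-0.13, adjusted p = 0.3). The 9 CXC chemokines split, with 4 higher and 3 lower: Cxcl12 and Cxcl16 rose by 1.60 and 0.82, and Cxcl3, Cxcl15 and Cxcl2 fell by 2.53, 1.33 and 0.88.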
